A study of Mus musculus with 27 samples.

Results

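The genes described here are 10 fast stress and stimulus response genes of the mouse, Fos, Fosb, Jun, Junb, Egr1, Atf3, Ier2, Nr4a1, Hspa1a and Hspa1b, chosen by symbol from the 22855 genes that the count tables of the study have in common. All 10 were found in both tables and all 10 passed the filter on low counts in every fit. RNA-Seq was performed on 12 samples of cardiac fibroblasts, sorted by flow cytometry for the surface receptor PDGFRα, and on 15 samples of whole heart from C57Bl/6 mice with no genetic modification or treatment named. Fibroblasts were sampled in 3 replicates at postnatal day 1 (P1) and 4 weeks and in 2 replicates at each later age (14 weeks, then 1 year, then 1.5 years), and whole hearts in 3 replicates at each of the 5 ages. The question was how the RNA of these genes differed between fibroblasts, which had been released from the ventricle by enzyme digestion and sorted, and heart tissue that had not been dissociated, and how it changed with age in each. Levels are given as CPM, the count of a gene scaled to the total count of its sample and to 1e+06 counts.

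Immediate early genes are held ready for transcription and are switched on within minutes by growth factors, injury, calcium or stress, without the need for new protein synthesis. Their products are mostly transcription factors: FOS and JUN proteins pair to form the factor AP-1, EGR1 and NR4A1 bind DNA with zinc fingers, and ATF3 is induced by many kinds of cell stress. Hspa1a and Hspa1b encode the inducible HSP70 chaperones, which are switched on by heat shock factor when proteins misfold, and in the heart many of these genes are known to respond to stretch and ischemia.

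Depth was 54615898 to 76758831 counts per fibroblast sample and 46091271 to 67984404 per heart sample. The 8 fibroblast markers, among them Pdgfra, Col1a1 and Dcn, summed to 17726 to 42114 CPM in the fibroblasts and 577 to 2062 CPM in the hearts, and the 9 cardiomyocyte markers to 13.8 to 812 CPM and 53983 to 79068 CPM, so the labelled tissues matched their markers. Cardiomyocyte markers stood at 729 to 812 CPM in the 3 P1 fibroblast samples and at no more than 183 CPM in the later ones. Xist was at most 0.490 CPM in every sample of 14 weeks and 1 year and Ddx3y at most 0.392 CPM in every sample of 1.5 years, while both were above 1 CPM in the samples of P1 and 4 weeks, so in changes to 1.5 years, and from P1 or 4 weeks to any later age, sex and age cannot be told apart, whereas all samples of 14 weeks and 1 year had Ddx3y, at 30.9 CPM or more, with so little Xist. The study's methods name 3 animals and 3 separate sets of fibroblasts per time point, but fewer fibroblast samples are held from 14 weeks on. Single heart samples of P1 and 4 weeks held RNA of both sex genes, such as 183 CPM of Xist and 39.2 CPM of Ddx3y in P1 replicate 2. All fibroblast samples of P1 and 4 weeks also held both, with Xist at 147 to 600 CPM and Ddx3y at 25.1 to 50.5 CPM. These fibroblast samples thus held RNA of both sexes, and so of more than 1 animal, which the labels do not state. Whether each of the other samples came from a single animal or from a pool is not known.

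To show the DNA from which the genes are transcribed, promoter windows of 250 bases before the RefSeq start (GRCm38.p6) were read for the 8 members with an entry; Ier2 and Egr1 were not among them. Each window was searched on both strands for the letters of 7 elements: the CArG box of serum response factor, the CRE TGACGTCA, the AP-1 site TGANTCA, the EGR site GCGNGGGCG, the heat shock element (GAA, any 2 bases, TTC), the NBRE AAAGGTCA and the TATA box TATAAA. Matches were found in 6 windows, which are shown 5′ to 3′ with the match in capitals, and in neither the Junb nor the Atf3 window.
Fos: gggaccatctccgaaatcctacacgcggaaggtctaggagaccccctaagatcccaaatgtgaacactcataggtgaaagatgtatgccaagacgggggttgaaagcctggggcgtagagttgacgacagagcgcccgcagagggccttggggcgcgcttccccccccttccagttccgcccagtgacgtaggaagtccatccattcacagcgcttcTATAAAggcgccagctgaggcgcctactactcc
Fosb: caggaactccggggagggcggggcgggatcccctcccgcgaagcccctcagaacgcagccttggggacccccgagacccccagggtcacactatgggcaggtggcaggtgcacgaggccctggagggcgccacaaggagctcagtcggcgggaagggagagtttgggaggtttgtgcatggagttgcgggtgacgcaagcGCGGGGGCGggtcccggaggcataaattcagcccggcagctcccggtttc
Jun: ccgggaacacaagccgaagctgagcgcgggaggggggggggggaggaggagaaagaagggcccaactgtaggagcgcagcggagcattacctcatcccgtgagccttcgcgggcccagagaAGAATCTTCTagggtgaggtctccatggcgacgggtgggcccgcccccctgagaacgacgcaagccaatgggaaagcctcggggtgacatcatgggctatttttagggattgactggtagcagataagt
Nr4a1: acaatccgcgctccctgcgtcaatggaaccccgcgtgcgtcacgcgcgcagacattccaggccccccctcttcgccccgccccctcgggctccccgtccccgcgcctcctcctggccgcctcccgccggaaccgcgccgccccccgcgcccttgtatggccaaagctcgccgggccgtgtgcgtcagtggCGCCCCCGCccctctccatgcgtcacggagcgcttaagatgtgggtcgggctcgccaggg
Hspa1a: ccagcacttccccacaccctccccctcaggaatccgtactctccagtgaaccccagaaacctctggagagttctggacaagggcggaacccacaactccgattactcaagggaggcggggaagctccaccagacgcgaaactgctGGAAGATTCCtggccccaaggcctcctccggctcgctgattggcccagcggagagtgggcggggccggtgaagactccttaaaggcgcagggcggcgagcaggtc
Hspa1b: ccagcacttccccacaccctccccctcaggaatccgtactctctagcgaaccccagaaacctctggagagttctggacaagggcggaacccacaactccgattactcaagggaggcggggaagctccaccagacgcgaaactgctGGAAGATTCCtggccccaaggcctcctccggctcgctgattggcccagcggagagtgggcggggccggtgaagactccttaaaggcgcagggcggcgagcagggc
The Fos window (chr12:85473640-85473889, plus strand) held a TATA box 33 to 28 bases before the start, and the Fosb window (chr7:19310046-19310295, minus strand) an EGR site 50 to 42 bases before it. The Nr4a1 window (chr15:101266596-101266845, plus strand) held an EGR site read from the other strand, 60 to 52 bases before the start. A heat shock element stood 129 to 120 bases before the start in the Jun window (chr4:95052223-95052472, minus strand) and 105 to 96 bases before it in both the Hspa1a window (chr17:34972157-34972406, minus strand) and the Hspa1b window (chr17:34959239-34959488, minus strand). The Hspa1a and Hspa1b windows were identical at 247 of 250 positions. Of 32851 mouse promoter windows of this length, 6.60% held the heat shock element, against 3 of the 8 members, 4.70% the EGR site, against 2 of 8, and 12.4% the TATA box, against 1 of 8. The CArG box, the CRE, the AP-1 site and the NBRE occurred in 1.47%, 1.55%, 6.75% and 1.34% of the windows and in 0 of the 8; these are matches of letters in 1 short window and say nothing of whether a factor was bound.

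All 10 genes were higher in dissociated fibroblasts than in whole hearts at every age, and the lowest fibroblast sample lay above the highest heart sample for every gene and age. Together the 10 genes took 1.35% to 3.84% of all counts in the fibroblasts and 0.0124% to 0.0473% in the hearts. Of all 20650 genes tested, 13.6% were called higher in fibroblasts at P1, 17.5% at 4 weeks, 17.1% at 14 weeks, 16.7% at 1 year, and 21% among the oldest samples, and 17.8%, 28.8%, 45%, 36.9% and 35.9% were higher in every fibroblast sample than in any heart sample at those ages. Differences were tested with edgeR on the counts, scaled by TMM, in 1 fit of all 27 samples, and are given as log2 fold differences with their SE.

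**Figure D1:**
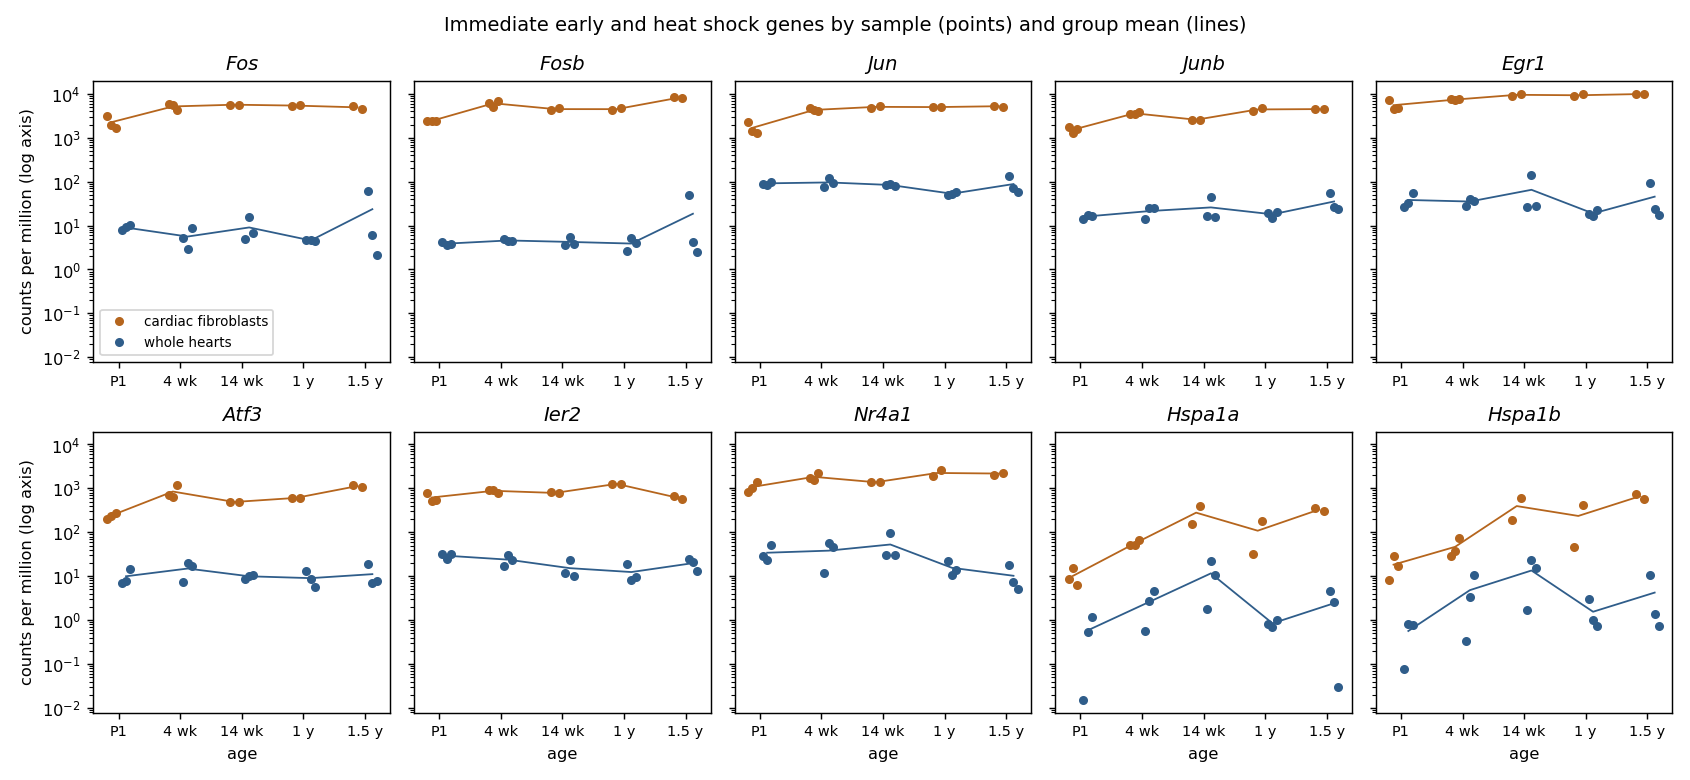
CPM of the 10 genes (log axis) in each cardiac fibroblast sample (brown points) and whole heart sample (blue points) by age, with lines through the group means. The fibroblast points lie above the heart points in every panel and at every age, and the distance is shortest for Hspa1b at 4 weeks.

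In mm10, by GENCODE vM21, Fos lies at chr12:85473890-85477273 and Nr4a1 at chr15:101254269-101274795 on the plus strand, and Fosb at chr7:19302696-19310051, Atf3 at chr1:191170296-191218039 and Ier2 at chr8:84661331-84662852 on the minus strand. Fos encodes the founding member of the FOS family, which binds DNA only as a partner of a JUN protein. In the fibroblasts Fos stood at 3163, 1972 and 1628 CPM at P1, 5747, 5457 and 4274 CPM at 4 weeks, 5645 and 5670.1 CPM at 14 weeks, 5257 and 5533 CPM at 1 year, and 5238 and 4606 CPM at 1.5 years. In the hearts it stood at 7.81, 9.16 and 10.05 CPM at P1, 5.13, 2.93 and 8.82 CPM at 4 weeks, 5.06, 15.5 and 6.62 CPM at 14 weeks, 4.599, 4.69 and 4.48 CPM at 1 year, and 62.7, 5.98 and 2.19 CPM at 1.5 years. The tissues did not come near each other, and 1 heart of 1.5 years, replicate 1, was above the other 14 hearts by a wide margin. The log2 difference was 8.03 ± 0.90 at P1 (adjusted p = 1.51e-07) and 7.38 ± 0.89 at 1.5 years (adjusted p = 3.22e-07); without that heart the latter was 9.95.

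Fosb, a close relative whose protein also pairs with JUN proteins, showed the same separation. Its fibroblast levels were 2440.5, 2447 and 2382 CPM at P1, 6159, 5130.3 and 7003 CPM at 4 weeks, 4291 and 4685 CPM at 14 weeks, 4189 and 4769.9 CPM at 1 year, and 8256 and 7989.7 CPM at 1.5 years. Its heart levels were 4.18, 3.68 and 3.78 CPM at P1, 4.83, 4.55 and 4.38 CPM at 4 weeks, 3.54, 5.38 and 3.82 CPM at 14 weeks, 2.59, 5.12 and 3.99 CPM at 1 year, and 49.1, 4.24 and 2.53 CPM at 1.5 years. The same heart of 1.5 years was the only one above 6 CPM. At 4 weeks the log2 difference, 10.01 ± 0.85 (adjusted p = 1.15e-09), was the largest of the 50 combinations of gene and age; at 1.5 years it was 8.44 ± 0.81, and 10.93 without that heart.

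Jun and Junb encode the DNA-binding partners of FOS proteins in AP-1. Jun stood at 2319.7, 1414 and 1311 CPM in P1 fibroblasts, 4697, 4240.0 and 3960.4 CPM at 4 weeks, 4766 and 5336 CPM at 14 weeks, 5065 and 4919 CPM at 1 year, and 5408 and 5045 CPM at 1.5 years. In the hearts Jun stood at 89.7, 84.9 and 100.1 CPM at P1, 75.2, 119.8 and 93.2 CPM at 4 weeks, 83.2, 88.3 and 80.6 CPM at 14 weeks, 49.1, 53.6 and 56.9 CPM at 1 year, and 134, 72.2 and 58.98 CPM at 1.5 years. The hearts of 1 year were the lowest for Jun, and the difference between the tissues was 4.26 ± 0.26 at P1 (adjusted p = 7.66e-12) and 5.55 ± 0.29 at 1.5 years (adjusted p = 3.09e-13). Junb stood at 1748, 1258 and 1564 CPM in P1 fibroblasts, 3465, 3412 and 3946 CPM at 4 weeks, 2547 and 2590.5 CPM at 14 weeks, 4156 and 4677 CPM at 1 year, and 4499 and 4487 CPM at 1.5 years. In the hearts Junb stood at 14.1, 17.6 and 16.9 CPM at P1, 13.98, 25.2 and 24.97 CPM at 4 weeks, 16.8, 45.4 and 15.6 CPM at 14 weeks, 19.1, 14.97 and 20.1 CPM at 1 year, and 55.4, 27.01 and 23.7 CPM at 1.5 years. The highest heart samples for Junb were replicate 1 of 1.5 years and replicate 2 of 14 weeks. Its log2 difference was 6.63 ± 0.42 at P1 and 6.65 ± 0.42 at 1.5 years. In the GENCODE vM21 annotation of mm10, Jun (chr4:95049034-95052222, minus strand) and Junb (chr8:84974484-84978718, minus strand) share 232 and 173 exon bases with Junos and Prdx2 on the other strand, and since the strand setting of the counting was not given, reads there cannot be told apart.

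Egr1 encodes a zinc finger factor that carries growth factor signals to its target genes. In the fibroblasts it stood at 7210.2, 4532 and 4799.7 CPM at P1, 7595, 7110.1 and 7466 CPM at 4 weeks, 9129 and 9869 CPM at 14 weeks, 8741 and 9813 CPM at 1 year, and 10013 and 9759.7 CPM at 1.5 years. In the hearts it stood at 27.1, 33.5 and 54.3 CPM at P1, 28.6, 40.1 and 37.2 CPM at 4 weeks, 26.9, 142 and 27.2 CPM at 14 weeks, 18.3, 16.3 and 22.1 CPM at 1 year, and 95.2, 23.9 and 17.6 CPM at 1.5 years. Replicate 2 of 14 weeks and replicate 1 of 1.5 years were the high hearts. The log2 difference was 7.23 ± 0.69 at P1 (adjusted p = 1.06e-08) and 7.43 ± 0.70 at 1.5 years (adjusted p = 7.59e-09).

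Nr4a1 encodes NUR77, an orphan nuclear receptor made within minutes of stimulation. It stood at 813, 1034 and 1392 CPM in P1 fibroblasts, 1734, 1564 and 2202 CPM at 4 weeks, 1367 and 1393 CPM at 14 weeks, 1889 and 2600.4 CPM at 1 year, and 2055 and 2299.8 CPM at 1.5 years. In the hearts it stood at 28.2, 23.7 and 50.9 CPM at P1, 11.8, 55.7 and 47.2 CPM at 4 weeks, 31.2, 97.1 and 30.02 CPM at 14 weeks, 22.1, 10.5 and 14.00 CPM at 1 year, and 18.00, 7.45 and 5.24 CPM at 1.5 years. Its hearts of 1.5 years were all below its hearts of P1 and of 14 weeks, while its fibroblasts of 1.5 years were all above those of P1. Of all genes, 43.2% had every heart of 1.5 years below every heart of P1, and 12.3% below every heart of 14 weeks. In the fibroblasts 18.2% of all genes had every sample of 1.5 years above every sample of P1. With TMM scaling the heart change of Nr4a1 from P1 to 1.5 years (-1.16) was not called. The log2 difference was 5.05 ± 0.59 at P1, 4.00 ± 0.58 at 14 weeks and 7.40 ± 0.67 at 1.5 years (adjusted p = 3.44e-09).

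Atf3 encodes a leucine zipper factor of the stress response that restrains other stress genes, and Ier2 a nuclear protein of the early serum response. Atf3 stood at 205, 239 and 278 CPM in P1 fibroblasts, 702, 651 and 1190.0 CPM at 4 weeks, 499.6 and 481 CPM at 14 weeks, 604 and 612 CPM at 1 year, and 1197 and 1068 CPM at 1.5 years. In the hearts Atf3 stood at 7.09, 7.86 and 14.97 CPM at P1, 7.36, 20.2 and 17.3 CPM at 4 weeks, 8.83, 10.3 and 10.7 CPM at 14 weeks, 12.9, 8.68 and 5.59 CPM at 1 year, and 18.7, 7.05 and 7.69 CPM at 1.5 years. No heart sample reached 21 CPM, and no fibroblast sample fell below 205 CPM. Ier2 stood at 793, 513 and 555 CPM in P1 fibroblasts, 925, 932 and 787 CPM at 4 weeks, 810.1 and 765 CPM at 14 weeks, 1258 and 1279 CPM at 1 year, and 654 and 562 CPM at 1.5 years. In the hearts Ier2 stood at 31.6, 24.6 and 31.7 CPM at P1, 16.9, 31.2 and 23.5 CPM at 4 weeks, 12.1, 23.5 and 10.2 CPM at 14 weeks, 19.5, 8.24 and 9.64 CPM at 1 year, and 24.9, 21.5 and 13.2 CPM at 1.5 years. Both genes kept the tissues apart at each age. The log2 difference of Atf3 was 4.66 ± 0.43 at P1 and 6.33 ± 0.48 at 1.5 years, and that of Ier2 was 4.46 ± 0.37 and 4.60 ± 0.38.

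Hspa1a and Hspa1b, neighbouring copies on chromosome 17 (chr17:34969190-34972156 and chr17:34956436-34959238, both minus strand), encode the same inducible chaperone. Hspa1a stood at 8.86, 15.5 and 6.18 CPM in P1 fibroblasts, 50.2, 50.97 and 65.4 CPM at 4 weeks, 158 and 402 CPM at 14 weeks, 31.9 and 186 CPM at 1 year, and 359 and 302 CPM at 1.5 years. In the hearts Hspa1a stood at 0.0153, 0.547 and 1.19 CPM at P1, 0.568, 2.69 and 4.56 CPM at 4 weeks, 1.75, 22.3 and 10.8 CPM at 14 weeks, 0.829, 0.689 and 1.02 CPM at 1 year, and 4.61, 2.64 and 0.0294 CPM at 1.5 years, where the lowest values rest on 1 count at P1 and 2 counts at 1.5 years. Replicates lay far apart, among others in the fibroblasts of 1 year and in the hearts of 14 weeks, but every heart was below every fibroblast sample of its age. Hspa1b stood at 8.25, 29.5 and 17.2 CPM in P1 fibroblasts, 28.7, 37.4 and 74.1 CPM at 4 weeks, 190.2 and 601 CPM at 14 weeks, 47.1 and 425 CPM at 1 year, and 761 and 565 CPM at 1.5 years. In the hearts Hspa1b stood at 0.0763, 0.836 and 0.786 CPM at P1, 0.329, 3.43 and 10.7 CPM at 4 weeks, 1.69, 23.8 and 15.01 CPM at 14 weeks, 2.96, 0.982 and 0.718 CPM at 1 year, and 10.6, 1.35 and 0.736 CPM at 1.5 years. Across samples the copies had a Pearson r of 0.954 in the 12 fibroblast samples and 0.928 in the 15 hearts, in log2(CPM + 1). The part of their shared sequence in this was not tested. The log2 difference of Hspa1b between the tissues at 4 weeks, 2.96 ± 1.09 (adjusted p = 0.0359), was the smallest of all, and it was no longer called when fibroblast replicate 3 (2.47), heart replicate 1 (2.4999) or heart replicate 2 (2.88) of 4 weeks was left out. At 14 weeks Hspa1a (3.03) and Hspa1b (3.09) were no longer called without fibroblast replicate 6. Of the 65-base windows of the transcripts, 63.6% in Hspa1a and 58.3% in Hspa1b occur in another gene as well, the other copy among them. Hspa1a also shares 564 exon bases with Gm20481 on the other strand. These overlaps leave the counts of each copy uncertain. The 2 copies summed were higher in fibroblasts by 4.72 at P1, 3.47 and 4.06 at 4 and 14 weeks, and 6.75 and 6.90 at 1 and 1.5 years.

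Over the 10 genes the median log2 difference between fibroblasts and hearts was 5.07 at P1 and 5.36 at 4 weeks, stood at 5.12 at 14 weeks, and was 6.81 and 6.87 at the last 2 ages. The 8 fibroblast markers, all of them higher in the fibroblasts, had a median of 3.36 at P1 and 3.94 at 1.5 years, and the 9 cardiomyocyte markers, all lower, a median of -6.11 and -9.82. In such bulk samples fewer fibroblasts in the heart and less of these RNAs per cell cannot be told apart. Nor can the tissue be told apart from the enzyme digestion, the sorting and the separate count tables, since every fibroblast sample went through all of them and no heart sample did.

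**Figure D2:**
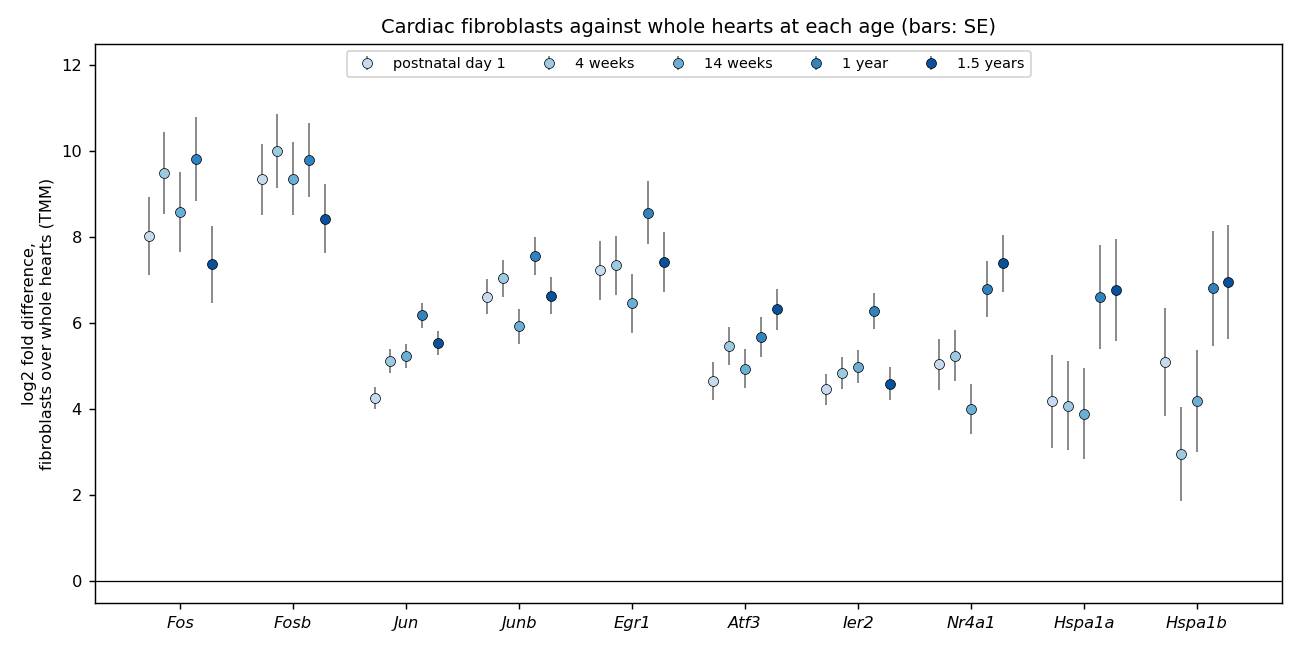
Log2 fold difference between cardiac fibroblasts and whole hearts for each gene at each of the 5 ages (points, pale to dark from P1 to 1.5 years), with the SE as bars. All 50 points lie above 0, from 2.96 for Hspa1b to 10.01 for Fosb, both at 4 weeks.

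With levels set on gene length (RPKM, the group's mean CPM divided by the exon length in kilobases), the order of the genes differed between the tissues. In fibroblasts of 1.5 years Egr1 had the highest RPKM, 2205, ahead of Fos at 2093, Junb at 1953, Jun at 1639 and Fosb at 1301, with Hspa1a the lowest at 111. In hearts of 1.5 years Jun led with an RPKM of 27.7, followed by Junb at 15.4 and Ier2 at 13.05, while Fosb stood at 2.98. Jun and Ier2 were also the first 2 in hearts of P1, with RPKM values of 28.7 and 19.3, and Egr1 and Fos in fibroblasts of P1, with 1230 and 958.

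In the fibroblasts 9 of the genes were higher at 1.5 years than at P1, and 9, with Ier2 in place of Hspa1b, were higher at 4 weeks than at P1. All 10 differed over the 5 ages, where 19.9% of the 18759 genes tested did. Between P1 and 1.5 years all but Ier2 were called higher, against 9.86% of all genes, and those 9 had every sample of 1.5 years above every sample of P1, as 18.2% of all genes did. The median log2 fold change was 1.81 over the members and 0 over all genes.

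All 4 FOS and JUN genes rose from P1 to 1.5 years. The log2 fold change was 1.34 ± 0.22 for Fos (adjusted p = 0.000916), 1.96 ± 0.15 for Fosb (1.47e-06), 1.85 ± 0.20 for Jun (3.02e-05) and 1.78 ± 0.14 for Junb (2.61e-06). Egr1 rose by 1.06 ± 0.17 (0.000846), Nr4a1 by 1.22 ± 0.22 (0.00179) and Atf3 by 2.45 ± 0.23 (9.74e-06). Ier2 had a log2 fold change of 0.19 ± 0.17 (adjusted p = 0.508) and its samples of the 2 ages overlapped. The largest rises were those of the HSP70 genes, 5.23 ± 0.64 for Hspa1a (8.69e-05) and 5.38 ± 0.84 for Hspa1b (0.000628). Each of these 9 calls held when any 1 of the 5 fibroblast samples of P1 and 1.5 years was left out. RNA of the mitochondrial genome took 6.15% to 9.18% of counts in P1 fibroblasts and 2.20% and 7.83% in those of 1.5 years, so the ages overlapped. Of the 9 cardiomyocyte markers 5 fell from P1 to 1.5 years, with a summed level of 729 to 812 CPM at P1 and 22.6 to 123 CPM at 1.5 years. The part of these in the result was not tested.

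**Figure D3:**
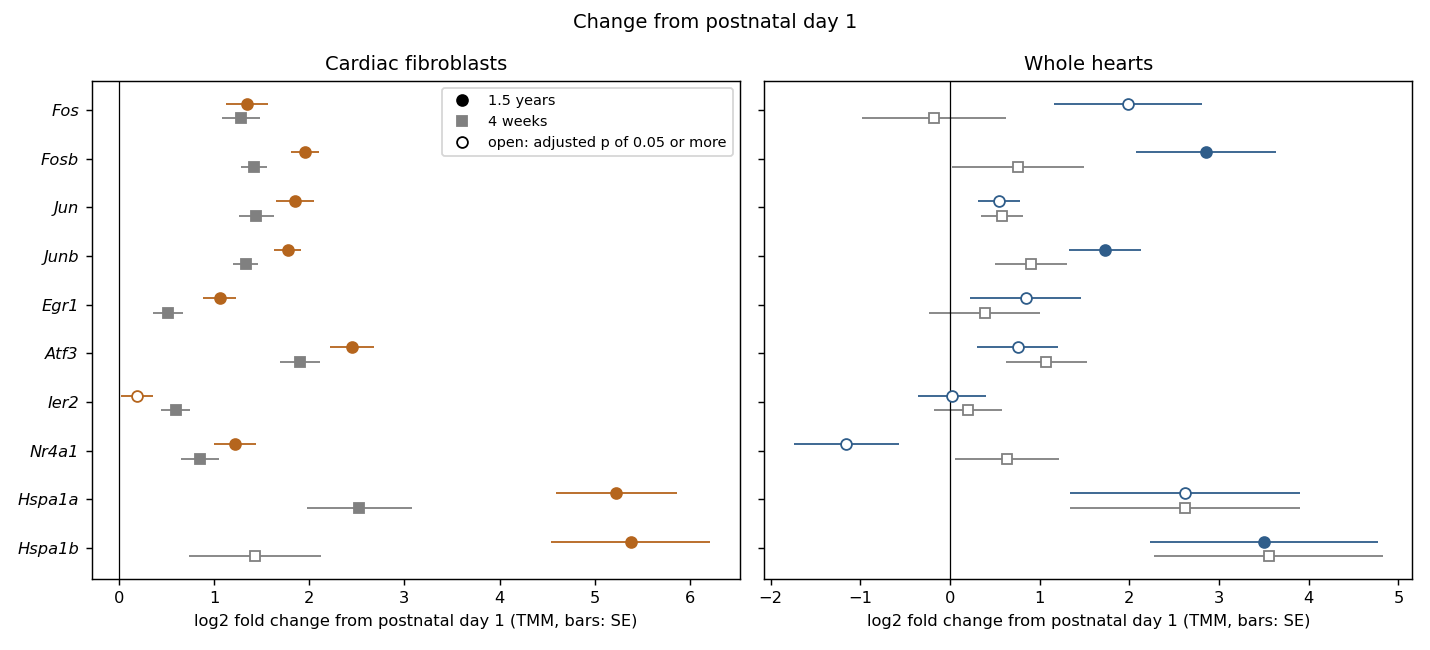
Log2 fold change from P1 to 4 weeks (grey squares) and to 1.5 years (coloured circles) of the 10 genes in cardiac fibroblasts (left) and whole hearts (right), with the SE as bars and open symbols for an adjusted p of 0.05 or more. In fibroblasts 9 of 10 genes are called at each age, and in hearts 0 at 4 weeks and 3 at 1.5 years.

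Between P1 and 4 weeks 9 genes were called higher in the fibroblasts, where 9.28% of all genes were. Atf3 rose by 1.90 ± 0.21, Jun by 1.44 ± 0.18, Fosb by 1.42 ± 0.13, Junb by 1.33 ± 0.13 and Fos by 1.28 ± 0.20, all on the log2 scale and with no overlap between the ages, as in 13.1% of all genes. Hspa1a rose by 2.53 ± 0.55, whereas Hspa1b, at 1.43 ± 0.69, missed the threshold (adjusted p = 0.192), as did the 2 copies summed (1.92, adjusted p = 0.0536). The calls of Egr1 (0.51 ± 0.16, adjusted p = 0.0425) and Ier2 (0.59 ± 0.15, 0.016) were the weakest, and samples of the 2 ages overlapped for both. Egr1 was lost without 4-week replicate 1 (0.50), 2 (0.54) or 3 (0.50) or P1 replicate 2 (0.40) or 3 (0.42), and with library size in place of TMM (0.42), and Ier2 without 4-week replicate 1 (0.56) or 2 (0.56) or P1 replicate 2 (0.48) or 3 (0.52). Markers of other cell types moved over the same step: 5 of 10 macrophage markers rose and none fell, with summed levels of 121 to 296 CPM at P1 and 391 to 733 CPM at 4 weeks, 5 of 9 cardiomyocyte markers fell, and of 8 mural cell markers 2 rose and 5 fell. RNA of the mitochondrial genome took 6.15% to 9.18% of counts in fibroblasts of P1 and 1.88% to 3.73% in those of 4 weeks, with no overlap. The part of the markers and of the mitochondrial share in these changes was not tested.

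After 4 weeks few members were called at any 1 step. From 4 to 14 weeks 1.79% of all genes were called higher. Hspa1a rose by 2.28 ± 0.57 (adjusted p = 0.0461) and Hspa1b by 3.03 ± 0.77 (0.0476), and no other member was called. Over this step 6 of 10 macrophage markers fell, to summed levels of 48.9 and 59.6 CPM, and their part was not tested. From 14 weeks to 1 year, where 1.31% of all genes were called higher, Junb rose by 0.96 ± 0.16 (0.0107) and Ier2 by 0.87 ± 0.18 (0.0349). From 1 to 1.5 years, where 0.144% of all genes were called lower, Ier2 fell with a log2 fold change of -1.06 ± 0.18 (0.0392), and its samples of 1.5 years lay within the range of those of P1; in a fit of these 2 ages alone, added after the data were seen, this call was lost (-1.07, adjusted p = 0.0561). Over the 4 steps between neighbouring ages, that from P1 included, 14 of 40 combinations of gene and step were called, 13 higher and 1 lower, against 5.34% over all genes, and 8 were called without replicate 4 or 6 of 14 weeks or replicate 1 of 4 weeks and 9 without replicate 3 of P1.

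Adult and old fibroblasts were then compared directly. From 14 weeks to 1.5 years 3 genes were called higher, against 1.91% of all genes: Fosb by 1.04 ± 0.16 (adjusted p = 0.00677), Junb by 0.99 ± 0.16 (0.0075) and Atf3 by 1.39 ± 0.26 (0.0136). Fos, at -0.02 ± 0.24, and Jun, at 0.23 ± 0.22, were not called, and Nr4a1, at 0.84 ± 0.25, missed the threshold (adjusted p = 0.105). Nr4a1 was called with DESeq2 (0.85, adjusted p = 0.00882). It was also called by edgeR in a fit of these 2 ages alone (0.84, 0.0223) and with at least 10 counts in every sample (0.85, 0.0494). With 2 samples a group the calls depended on single samples: all 3 were lost without replicate 4 of 14 weeks (Fosb 0.96, Junb 0.96, Atf3 1.40) or replicate 6 of 14 weeks (1.11, 1.01 and 1.37), and that of Atf3 without replicate 4 of 1.5 years (1.31). Endothelial markers summed to 1810 and 2243 CPM at 14 weeks and 339 and 1604 CPM at 1.5 years; their part in these changes was not tested.

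In the whole hearts the genes were low and variable, and more of them differed over the ages than were called in any single comparison of 2 ages. Over the 5 ages 6 genes differed, Fosb, Jun, Junb, Nr4a1, Hspa1a and Hspa1b, where 34.3% of the 17995 genes tested did. These calls depended on single samples: 2 were left without replicate 2 of 14 weeks (Fosb and Junb) or replicate 2 of P1 (Fosb and Nr4a1), 3 without replicate 3 of 14 weeks (Fosb, Junb and Nr4a1) or replicate 1 of P1 (Fosb, Nr4a1 and Hspa1a), 4 without replicate 3 of P1 or replicate 2 of 1 year (Fosb, Junb, Nr4a1 and Hspa1a), and 1, Junb, with the replicate number as a block. From P1 to 1.5 years 3 were called higher, against 15.6% of all genes: Fosb by 2.85 ± 0.78 (adjusted p = 0.0103), Junb by 1.73 ± 0.40 (0.0036) and Hspa1b by 3.50 ± 1.27 (0.0458). Only Junb had all of its old hearts above its P1 hearts, as 9.38% of all genes did. From 14 weeks to 1.5 years Nr4a1 alone was called, lower at -2.58 ± 0.61 (0.0115), where 7.86% of all genes were called lower; without replicate 2 of 14 weeks it was -1.70 (adjusted p = 0.0772) and without replicate 3 of 1.5 years -2.28 (0.0543).

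These heart changes turned on a few samples. Replicate 1 of 1.5 years held 10.5 times the Fos and 11.6 times the Fosb CPM of the higher of its 2 group mates, 7.88 times the Hspa1b and 3.98 times the Egr1, but 1.16 times the Ier2. Replicate 2 of 14 weeks was the highest heart sample for Egr1, Nr4a1, Hspa1a and Hspa1b. Without replicate 1 of 1.5 years the change from P1 to 1.5 years was 0.39 for Fosb (adjusted p = 0.576), 1.47 for Hspa1b (0.342) and -0.57 for Fos (0.454), none of them called, whereas Junb stayed called at 1.25 (0.0212) and Nr4a1 was called lower at -1.85 (0.0339), as 16.3% of all genes were with all samples. Without it Egr1 was also called lower from 14 weeks to 1.5 years, at -1.88 (0.0382). Without replicate 3 of 1.5 years 6 genes were called higher from P1, Fos (2.52), Jun (0.74) and Hspa1a (3.20) with the other 3, and without replicate 2 Fos was called with them (2.45). The call of Hspa1b was lost without replicate 1 (3.04), 2 (3.91) or 3 (3.88) of P1. From 14 weeks to 1.5 years Fosb was called higher without replicate 2 (2.43) or 3 (2.47) of 1.5 years, as 4.91% of all genes were with all samples. Macrophage markers, of which all 10 were higher in old hearts, summed to 125 to 145 CPM at P1 and 612 to 873 CPM at 1.5 years, and replicate 1, with 612 CPM, was the lowest of the 3; it also had 26.5% of its counts from the mitochondrial genome, against 18.5% and 18.7% in its group mates. The part of either was not tested.

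**Figure D4:**
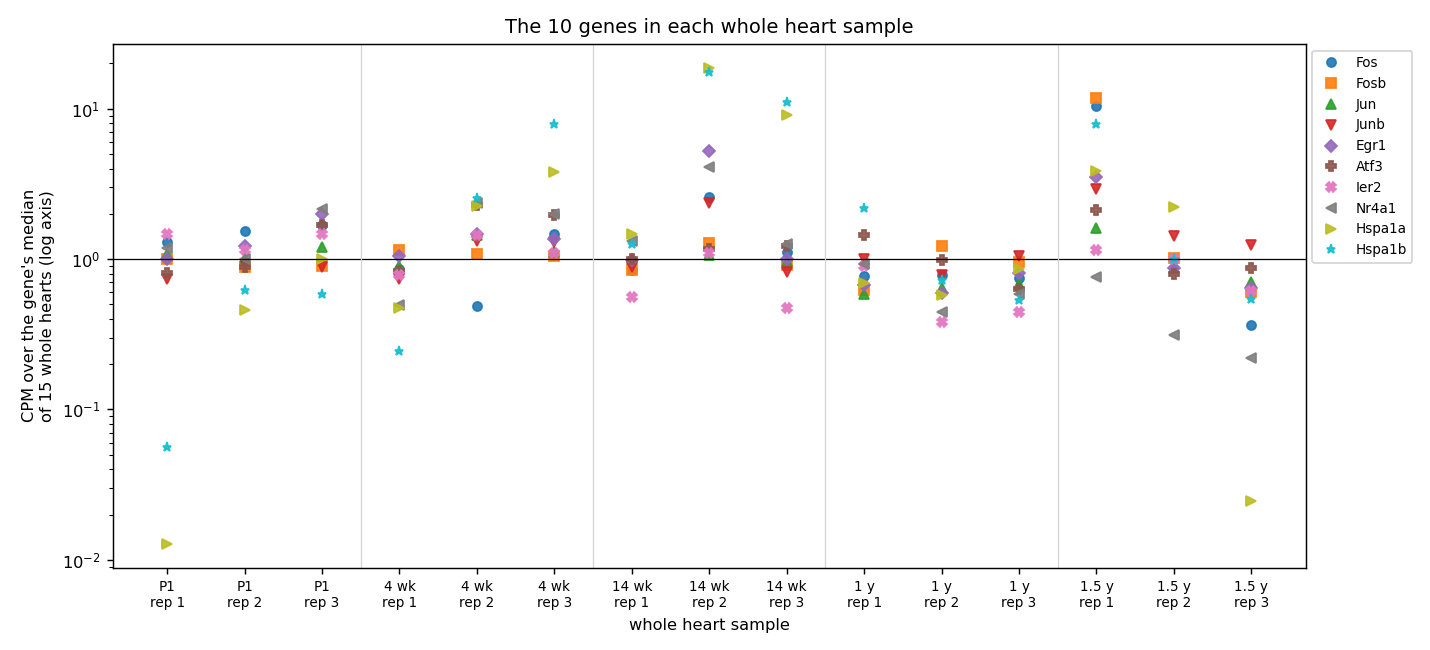
Level of each of the 10 genes in each whole heart sample, as CPM divided by the gene's median over the 15 hearts (log axis), with samples grouped by age. Replicate 1 of 1.5 years stands high for Fos, Fosb and Hspa1b and replicate 2 of 14 weeks for Hspa1a, Hspa1b, Egr1 and Nr4a1, while most points of the 3 hearts of 1 year lie below 1.

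No heart gene was called between neighbouring ages in the edgeR fit of all hearts. Of the 40 combinations of gene and step 0 passed the adjusted p, where 5.86% over all genes did. An unadjusted p under 0.05 was found for 13, DESeq2 called 6, and edgeR with 1 sample left out called up to 3. Shares over all genes were taken only for the adjusted p of the fit of all hearts, so the other counts here cannot be set against one. From P1 to 4 weeks, where 18.2% of all genes were called, 4 members had an unadjusted p under 0.05 and DESeq2 called 1, Hspa1b at 3.53 (adjusted p = 0.00735), while an edgeR fit of these 2 ages alone called Junb (0.88, adjusted p = 0.0426) and the fit without replicate 1 of 4 weeks Hspa1b (4.10, 0.0312). With library size alone as the scale the median of all genes in the change from P1 to 1.5 years lay 0.60 lower on the log2 scale than with TMM; on that scale 2 members, Fosb and Junb, were called higher and Nr4a1 lower (-1.75, adjusted p = 0.0261), and Hspa1b was not called (2.90, 0.0761).

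The change from P1 to 1.5 years was compared between the tissues by their interaction. For 3 genes the log2 fold change was higher in fibroblasts than in hearts, against 7.88% of all genes: Jun by 1.29 ± 0.34 on the log2 scale (adjusted p = 0.0137), Atf3 by 1.66 ± 0.56 (0.0493) and Nr4a1 by 2.35 ± 0.74 (0.0375). The other 7 were not called, with differences from -0.91 for Fosb to 2.59 for Hspa1a. Without heart replicate 1 of 1.5 years 5 were called, Jun (1.57), Atf3 (2.11), Nr4a1 (2.90), Fos (1.75) and Fosb (1.40), and 0 were called without fibroblast replicate 4 (Jun 1.22, Atf3 1.57, Nr4a1 2.42), heart replicate 2 (1.02, 1.28 and 2.03) or heart replicate 3 (0.97, 1.36 and 1.94) of that age, while 1, Jun, was called (1.35, 1.57, 1.19 and 1.21) without fibroblast replicate 5 of 1.5 years, fibroblast replicate 1 or 2 of P1 or heart replicate 3 of P1, in that order.

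Taken over all ages in the fit of each tissue, the variation between replicates was lower in fibroblasts than in hearts for each of the 10 genes. This did not hold within every age. Relative to the group mean, CPM at P1 varied more among fibroblasts than among hearts for Fos, Jun, Junb and Ier2. It varied less for Fosb, Egr1, Atf3, Nr4a1, Hspa1a and Hspa1b. The biological coefficient of variation from the fit was 13.2% to 19.2% for the 8 members other than the HSP70 genes in the fibroblasts, with 43.5% for Hspa1a and 55.7% for Hspa1b, beside a median of 45.5% over all genes. In the hearts it ran from 20.9% for Jun to 98.5% for Hspa1a, beside a median of 36.6%. Over the 12 fibroblast samples the 28 pairs among those 8 genes had a median Pearson r of 0.75 in log2(CPM + 1), from 0.16 to 0.98, and over the 15 hearts a median of 0.55, from 0.01 to 0.85; the fibroblast samples share the rise from P1, which enters every pair.

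Each gene with a mean of at least 10 CPM was compared with the mean z-score of the 10 members in log2(CPM + 1). Across the 12 fibroblast samples the 5 most alike, of 8812 genes searched, were H2-D1 (r = 0.990) and H2-K1 (0.989), which encode major histocompatibility proteins, Slfn8 (0.986), Myoc (0.984) and Lrp1 (0.978). Across the 15 hearts, of 8575 searched, they were Sco1 (0.767), Dffa (0.757), Klf4 (0.736), Lactb (0.679) and Klf2 (0.651), of which Klf2 and Klf4 are transcription factors known to respond to flow in the vessel wall. These are descriptions of likeness over samples that share age and tissue handling.

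Most other early response genes were also called higher in old than in P1 fibroblasts. Of 39 other immediate early genes 29 rose and 1 fell from P1 to 1.5 years, with a median log2 fold change of 1.36 against 0 over all genes, of which 9.86% rose and 6.46% fell. Ptgs2, the inducible cyclooxygenase, rose by 6.73 ± 0.71 and Arc, a gene first known from neurons, by 4.17 ± 0.32, while Dusp6, a phosphatase of ERK kinases, fell (-0.55 ± 0.17). Of 12 AP-1 partners 4 rose, among them Mafk by 2.14 ± 0.33 and Jund by 1.76 ± 0.15, and of 7 EGR and NR4A relatives 1, Nr4a3, by 1.90 ± 0.59. Of 20 other heat shock genes 12 rose and none fell (median 0.92), with the small heat shock proteins Hspb1 at 4.51 ± 0.35 and Hspb8 at 3.84 ± 0.35 leading. Of 10 genes of the integrated stress response 4 rose (median 0.16), among them Nupr1 by 2.44 ± 0.17 and Atf5 by 1.33 ± 0.14. Of 17 kinases and factors upstream of these genes 1 rose, Rps6ka3 by 1.25 ± 0.16, and 2 fell, among them Mapk9 (-0.46 ± 0.13), with a median of 0.02; the counts of the upstream genes and of the EGR and NR4A relatives were near the shares over all genes.

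The hearts had a more mixed picture over the same ages. Of the 39 other immediate early genes 10 rose and 7 fell from P1 to 1.5 years (median 0.23), where 15.6% of all genes rose and 16.3% fell, so that the falls were near the share over all genes; among them were Irf1, a factor of the interferon response, higher by 2.20 ± 0.27 and Ier3 by 1.43 ± 0.26, and the clock gene Per1 (-2.64 ± 0.31) and Myc (-2.58 ± 0.49) lower. Of 20 heat shock genes 9 rose and 1 fell, Hspb8 rising by 3.86 ± 0.16 and Cryab by 2.26 ± 0.17, both small heat shock proteins abundant in heart muscle, and Hsf2 falling (-1.39 ± 0.30). Of 10 genes of the integrated stress response 4 rose, Atf5 by 1.92 ± 0.19 and Ddit3 by 1.62 ± 0.25 among them, and of 17 upstream genes 8 fell and 2 rose, the latter near the share over all genes.

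Against whole hearts of 1.5 years, 38 of the 39 other immediate early genes were higher in the fibroblasts and none lower, with a median log2 difference of 4.04, where 21% of all genes were higher and 17.9% lower. Ptgs2 differed by 8.11 ± 1.24 and Socs3, a brake on cytokine signalling, by 7.60 ± 0.48. Of the EGR and NR4A relatives 6 of 7 were higher, Egr2 by 7.52 ± 0.78 and Nr4a3 by 6.76 ± 1.16, and of the 12 AP-1 partners 8 were higher and 1 lower, with Fosl2 higher by 4.44 ± 0.41. The heat shock list went both ways: 5 of 20 were higher, led by the HSP40 cochaperones Dnajb1 at 4.40 ± 0.41 and Dnaja1 at 2.93 ± 0.30, and 8 were lower, with Cryab (-5.65 ± 0.27) and Hspb8 (-4.67 ± 0.32) the furthest. Of 10 genes of the integrated stress response 4 were higher and 1 lower, and of 17 upstream genes 9 were higher and 3 lower, with median differences of 0.38 and 0.51; the heat shock genes that were higher and the upstream genes that were lower were near the shares over all genes.

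**Figure D5:**
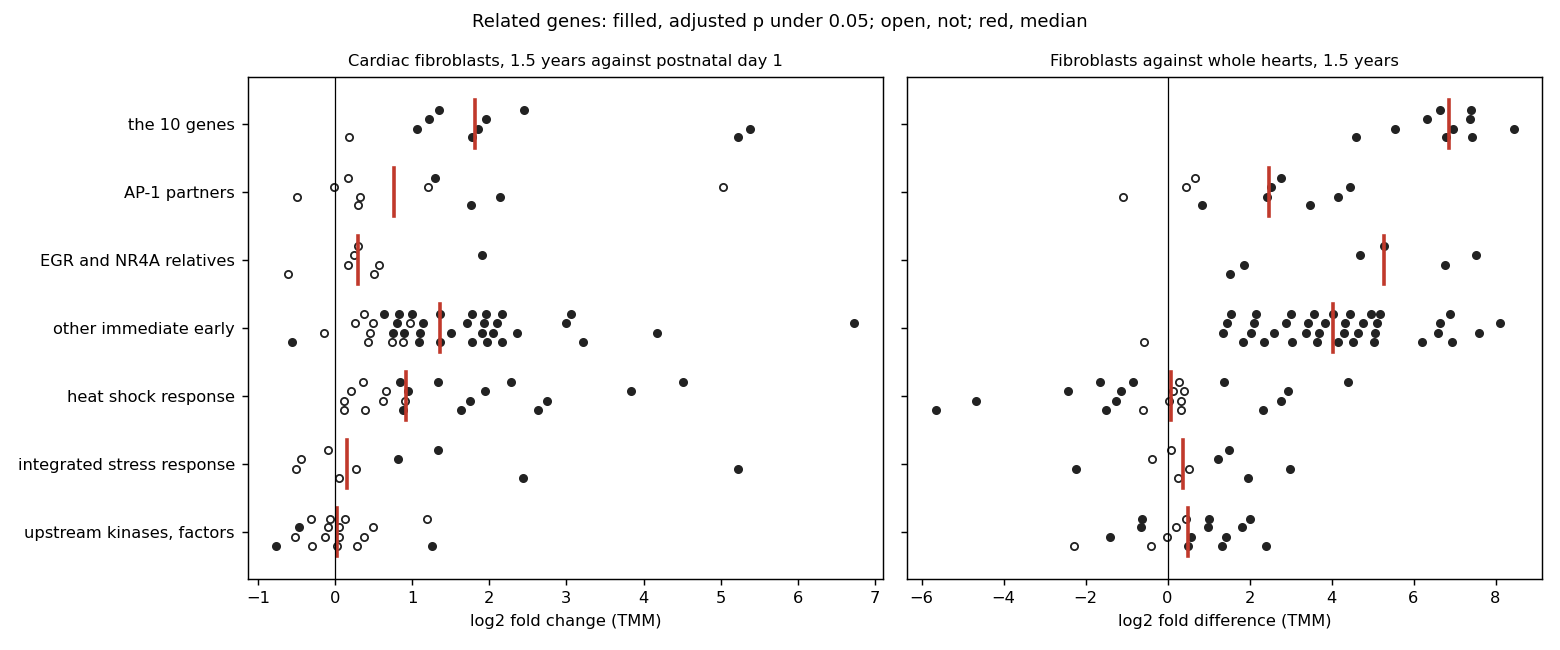
Log2 fold change from P1 to 1.5 years in cardiac fibroblasts (left) and log2 difference between fibroblasts and whole hearts at 1.5 years (right) for the 10 genes and 6 lists of related genes, with filled points for an adjusted p under 0.05 and red bars at the list medians; genes with a group mean under 0.05 CPM (3 on the left, 4 on the right) are not drawn but enter the medians. The other immediate early genes have a median of 1.36 on the left and 4.04 on the right, below those of the 10 genes (1.81 and 6.87), and the heat shock list has 0.92 and 0.08.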

How the data were processed

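The authors deposited 2 tables of gene counts, 1 of cardiac fibroblasts and 1 of whole hearts, as whole-number counts that were not normalized; single-end reads of 65 bases were aligned to mm10 with STAR 2.5.3a, per the labels and the study's methods, and the strand setting of the counting is not given in the sources used here. Samples were grouped by tissue and age from their labels, and total counts were 46091271 to 76758831 per sample. Counts were tested with edgeR 4.0.16 in R 4.3.3 (filterByExpr, TMM, quasi-likelihood F-test) in 1 fit per tissue and 1 over both, with Benjamini-Hochberg adjustment over all genes tested and a threshold of 0.05. SE values come from the fold change (log2) and the F statistic, as their quotient with F under a square root. CPM is the count scaled to the sample's total and to 1e+06. RPKM and exon overlaps used GENCODE vM21 gene models, and promoters the RefSeq windows of GRCm38.p6. Among the related lists, up to 2 genes with the largest rise and 2 with the largest fall were named per list and comparison, from those past the threshold with at least 10 CPM in 1 group and no overlap; the text gives most of these. The members and lists were chosen with earlier results of these data known. Alternatives were DESeq2 1.42.0, other scaling, filters, a 2-fold requirement, fits of only the groups compared, the replicate number as a block, the HSP70 genes summed, and each sample left out; the edgeR script was tested on simulated data. Replicate numbers were not used to pair samples in the main fits. The study sequenced fibroblasts and the hearts they were isolated from, so samples of the 2 tissues may share animals, which the labels do not settle. Tables and figures were made with Python 3.11.15, pandas 2.3.3, numpy 2.4.6 and matplotlib 3.10.9. No deposited table was left out. Values of some single genes of the related lists are not reported here.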

Additional observations from a re-analysis of the deposited data

Results flagged for a closer look

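The change from P1 to 1.5 years differed between cardiac fibroblasts and whole hearts for 3 of the 10 genes, by the interaction term of edgeR's quasi-likelihood fit. Of all genes 7.88% were called with the higher change in fibroblasts. With 1 sample left out, 0 to 5 of the 10 genes were called. Atf3 and Nr4a1 were lost with DESeq2 or median-of-ratios scaling, and all 3 in a fit of only the groups compared. The log2 difference between the changes was 1.29 for Jun (adjusted p = 0.0137), 1.66 for Atf3 (adjusted p = 0.0493) and 2.35 for Nr4a1 (adjusted p = 0.0375), each with the higher log2 fold change in the fibroblasts; in hearts that of Nr4a1 was -1.16. Tissue, dissociation, sorting and count table cannot be told apart in this difference, nor age and sex.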

How the results depend on the processing

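Of 710 values of single genes recomputed with 1 sample left out, 57 changed their call, 46 by losing and 9 by gaining one; the 2 called in the opposite direction were the interactions of Fos (1.75) and Fosb (1.40) without heart replicate 1 of 1.5 years, which ran down to -1.31 for Fos and -1.55 for Fosb without replicate 3. Of 995 recomputed under other settings 31 changed, 17 by losing and 14 by gaining a call, and none was called in the opposite direction. Values without a call could change sign with 1 sample left out, as the log2 fold change of Fos in hearts from P1 to 1.5 years did (-0.57 without replicate 1 of 1.5 years). With 1 sample left out, the number of genes called in fibroblasts ran from 10 to 10 over the ages, 9 to 9 from P1 to 1.5 years, 0 to 3 from 14 weeks to 1.5 years, 7 to 9 from P1 to 4 weeks and 8 to 14 over the steps. In hearts it ran from 2 to 7 over the ages, 2 to 6 from P1 to 1.5 years, 0 to 2 from 14 weeks to 1.5 years, 0 to 1 from P1 to 4 weeks and 0 to 3 over the steps. Between the tissues it ran from 10 to 10 at P1, 9 to 10 at 4 weeks, 8 to 10 at 14 weeks and 10 to 10 at 1 and 1.5 years, and for the interaction from 0 to 5. Of 146 counts of called genes under other settings, 136 were within 1.5 times the count reported. With a 2-fold requirement 9 fibroblast steps were called, and with at least 10 counts in every sample, which left 8 members, 2 heart genes from 14 weeks to 1.5 years. DESeq2 called 1 heart gene from P1 to 4 weeks, 6 heart steps and 1 interaction, and median-of-ratios scaling 1 interaction. Fits of only the groups compared called 1 heart gene from P1 to 1.5 years, 1 from P1 to 4 weeks and 0 interactions. The cause was not tested, and shares over all genes were not taken under these settings. Library size in place of TMM moved the median of all genes by -0.21 for fibroblasts and -0.60 for hearts from P1 to 1.5 years, and by 0.34 to 0.66 between the tissues from 4 weeks on. Replicate numbers were shared by some groups, but deviations of same-numbered P1 and 4-week fibroblasts had correlations of -0.012, -0.020 and 0.004. Between heart ages such correlations ran from -0.220 to 0.339, and between fibroblasts and hearts of P1 and 4 weeks from -0.059 to 0.069. They cannot exclude that samples share animals. With the replicate block 9 fibroblast genes were called from P1 to 4 weeks (Egr1 lost at 0.54, Hspa1b gained at 1.51) and, in hearts, 1 over the ages, 2 from P1 to 1.5 years, 1 from 14 weeks to 1.5 years and 0 from P1 to 4 weeks, with 10 between the tissues at P1 and at 4 weeks. Fibroblasts of 1 and 1.5 years share 2 numbers (correlation 0.201, the same for both pairs by construction). The block, fitted to these 2 ages alone, called 3 members, Ier2 (-1.07), Fosb (0.85) and Atf3 (0.89), and 452 of all 16239 genes tested. The fit of all fibroblast samples called 1 member, Ier2, and 0.24% of all genes at this step. In the fit of these 2 ages without the block Ier2 was not called (adjusted p = 0.0561). No paired analysis was possible for the other fibroblast comparisons, because their groups share fewer than 2 numbers. Depth limited Hspa1a in hearts, with 1 and 2 counts in its lowest samples.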
